A study of Schizosaccharomyces pombe
Saccharomyces cerevisiae with 8 samples.

Results

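The RNAs described here are the stable structural noncoding RNAs of budding yeast (Saccharomyces cerevisiae): the RNA of the signal recognition particle, the RNA of nuclear RNase P, the telomerase RNA and the RNAs of the spliceosome. They were chosen by feature identifier from a list of 8 (SCR1, RPR1, TLC1, LSR1, snR19, snR14, snR6 and snR7-L). No measured value entered that rule, but the list was drawn up with earlier results of these data known. Of these, 7 were found among the 6518 features of the total RNA table, and 6 had a mean of at least 10 counts per library and were tested. TLC1 was not analysed here. Cells of strain GZY380 expressed the plant auxin receptor OsTIR1 from the GPD1 promoter (his3::pGPD1-OsTIR1-HIS3) and carried auxin-inducible degrons on 2 Mediator subunits, MED17-3V5-IAA7-kanMX6 and MED14-3HA-IAA7-URA3. The strain was MATalpha with ura3<delta>0, trp1<delta>63, met15<delta>0, lys2<delta>0, leu2<delta>0, his3<delta>200 and ade2<delta>::hisG, and the DMSO and auxin groups shared all of these alleles. For 30 min the cells were given either DMSO alone or auxin (3-indole acetic acid) at 500 µM. Both groups were then labelled with 4-thiouracil (5 mM, 6 min), and 1 part of each culture was joined with 3 parts of Schizosaccharomyces pombe before extraction. Total RNA was depleted of ribosomal RNA and sequenced from 2 DMSO and 2 auxin cultures, which the series design calls biological replicates. Auxin should remove Med14 and Med17, but no protein level was measured in these data. The comparison with DMSO asks how the level of each RNA in total RNA differed after 30 min of auxin.

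Most eukaryotic messenger RNAs and the capped small nuclear RNAs are made by RNA polymerase II, for which Mediator is a coactivator. RNA polymerase III, which uses its own initiation factors, makes transfer RNAs and a small set of other short RNAs. The RNAs described here come from both enzymes. SCR1 is the scaffold of the signal recognition particle, which brings ribosomes making secreted proteins to the endoplasmic reticulum. RPR1 is the catalytic RNA of nuclear RNase P, which trims the 5′ ends of transfer RNAs. SCR1, RPR1 and snR6 (U6) are polymerase III products. snR19 (U1), LSR1 (U2), snR14 (U4) and snR7-L (the long form of U5) are polymerase II products. In the spliceosome, U1 reads the 5′ splice site, U2 pairs with the branch point, U4 holds U6 until activation, U5 aligns the exons and U6 forms the catalytic core. All are held in protein particles and are known to be long-lived.

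Counts in the table summed to between 10862028 and 17491251 per library. The median feature fell to a log2 fold change of -1.85 after auxin (3.61-fold lower) with the authors' size factors, and 92.3% of the 5589 tested features were called lower, 0.769% higher and 6.96% neither (edgeR quasi-likelihood test, Benjamini-Hochberg adjusted p below 0.05). Most directions given here depend on this scaling, except where another scaling is named or a ratio within a library is given. TMM scaling, which assumes that most features do not change, moved the median feature to -0.09. The alpha-mating genes MF(ALPHA)1 and STE3 were expressed, with 1012 to 4608 and 569 to 4414 counts per library. The target genes, listed as RGR1 (MED14) and SRB4 (MED17), had log2 fold changes of -1.27 and -1.90, which say nothing of protein removal.

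Among the 6 RNAs tested, 1 fell (snR14), 0 rose and 5 were not called, while 92.3% of all features fell. At an unadjusted p below 0.05 the count of rises was also 0. DESeq2 with the authors' size factors gave 1 lower and 0 higher as well, against 91.2% and 0.519% of all features, and the fit with a replicate term gave the same counts against 93.5% and 0.913%. With no filter 2 fell and 0 rose, against 81% and 0.859% of all features. With TMM scaling 0 were lower and 5 higher, against 32.3% and 29.6% of all features, and DESeq2 size factors gave 0 and 5 against 27.6% and 32.4%. Total count scaling gave 1 lower and 4 higher, against 83.1% and 6.78%. The abundant RNAs SCR1, RPR1, snR19 and LSR1 stood at 85.6% to 103% of their DMSO mean in auxin. They lay 1.63 to 1.89 above the median feature on the log2 scale. In these bulk libraries less RNA per cell and fewer S. cerevisiae cells in the mix cannot be told apart.

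SCR1 (chromosome V 441987 to 442508, build sacCer3) was the most counted feature of the table. Its normalized counts were 976261 and 1071887 in DMSO and 1015607 and 1066559 in auxin. The auxin libraries lay inside the range of the DMSO libraries. SCR1 changed by 0.02 on the log2 scale, well within its SE of 0.186 (adjusted p = 0.902 by edgeR's quasi-likelihood test), with a 95% interval of the auxin level from 78.9% to 131% of DMSO.

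RPR1 (chromosome V 117667 to 118035), the RNase P RNA, had 64197 and 67102 normalized counts in DMSO and 67548 and 67609 in auxin. The auxin libraries were slightly above both DMSO libraries, as in 1.11% of all tested features. The log2 difference of 0.04, with an SE of 0.2 (adjusted p = 0.84, edgeR), was within error, and the interval ran from 78.5% to 135% of DMSO.

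LSR1 (chromosome II 680688 to 681862) is the U2 RNA and, at 1175 nt, the longest of the set. It had 462058 and 463889 normalized counts in DMSO and 390142 and 402502 in auxin. Both auxin libraries were below both DMSO libraries, a pattern seen in 94.6% of tested features. The log2 fold change of -0.22 (SE 0.191) did not pass (edgeR adjusted p = 0.251), and the interval ran from 66.0% to 111% of DMSO.

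snR19 (chromosome XIV 230105 to 230672), the U1 RNA, had 187154 and 217340 normalized counts in DMSO and 185112 and 197370 in auxin. The groups overlapped, and the DMSO libraries differed more from each other than the group means did. Its log2 value for auxin over DMSO was -0.08, with an SE of 0.195 (adjusted p = 0.689, edgeR) and an interval from 72.5% to 123% of DMSO.

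The 3 shortest spliceosomal RNAs were scarce in the libraries. snR14 (chromosome V 167427 to 167586), the U4 RNA, had 110 and 128 normalized counts in DMSO and 35.2 and 52.9 in auxin, from raw counts of 120, 93, 37 and 63. Both auxin libraries were below both DMSO libraries. snR14 fell by 1.41 on the log2 scale, with an SE of 0.269 (adjusted p = 1.99e-07, edgeR), to between 26.0% and 54.1% of DMSO by the 95% interval. It was the only RNA of the set called at the main settings, and it still lay 0.44 above the median feature. The call depends on scaling: snR14 was also called lower with total counts (-0.81, edgeR adjusted p = 0.00703), but was at 0.34 with TMM (adjusted p = 0.186) and 0.41 with DESeq2 size factors.

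snR6 (chromosome XII 366235 to 366346), the U6 RNA and the shortest at 112 nt, had 20.1 and 60.4 normalized counts in DMSO and 24.7 and 40.3 in auxin, from raw counts of 22, 44, 26 and 48. The auxin libraries lay between the DMSO libraries, which differed most. Its log2 value for auxin over DMSO was -0.21, with an SE of 0.335 (adjusted p = 0.543, edgeR) and an interval from 54.8% to 136% of DMSO. Its value depends on which DMSO library is kept: it was -0.88 without DMSO replicate 1 (adjusted p = 0.0469, a call), 0.70 without DMSO replicate 2, 0.10 without auxin replicate 1 and -0.61 without auxin replicate 2.

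snR7-L (chromosome VII 939459 to 939672), the long form of U5, had raw counts of 6 and 15 in DMSO and 3 and 4 in auxin, or 5.49, 20.6, 2.85 and 3.36 normalized counts. Both auxin libraries were lower, but a mean of 7 counts kept it out of the test. Summed counts gave an auxin level of 27.1% of DMSO, with an exact binomial interval from 9.72% to 66.1% that covers counting error only. Fitted with no filter, it had a log2 fold change of -1.88 (edgeR adjusted p = 0.0144). Its short form shares most of its sequence and was not analysed here, and how reads of both were assigned is not given in the sources used here.

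**Figure D1:**
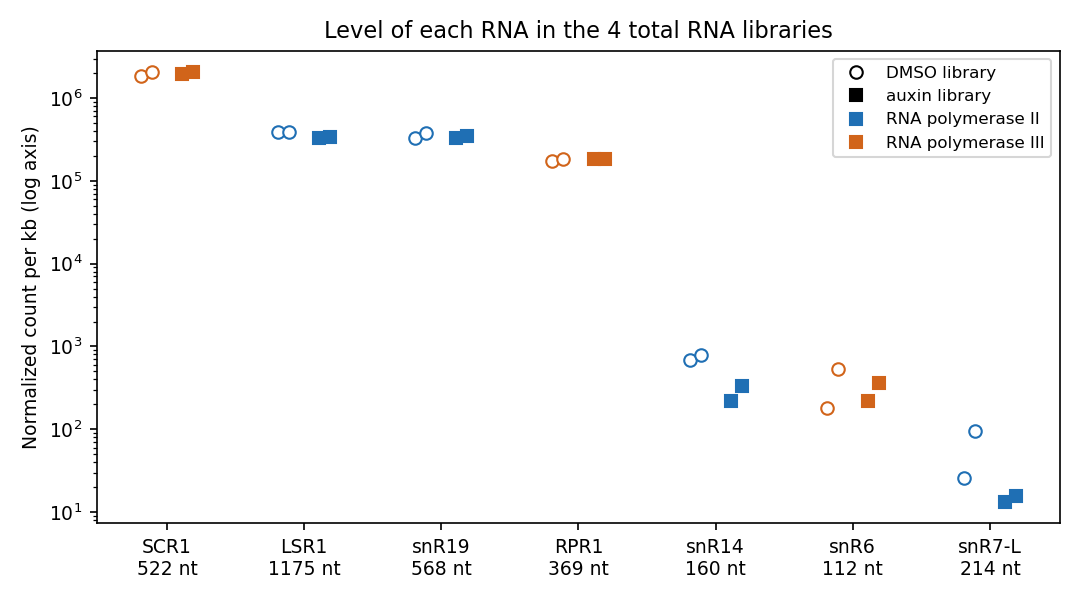
Normalized count per kb (log axis) of the 7 RNAs in each total RNA library, with open circles for DMSO, filled squares for auxin, and colour for the polymerase. SCR1 stood highest, the lowest value of the 4 longest RNAs was 173975 (RPR1), and the highest value of snR14, snR6 and snR7-L was 798 (snR14).

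Per length, the order in DMSO was SCR1 (1961827 ± 129535 normalized counts per kb, SD, n = 2), LSR1 (394020 ± 1102), snR19 (356068 ± 37578), RPR1 (177911 ± 5566), snR14 (742 ± 79.6), snR6 (360 ± 255) and snR7-L (61.0 ± 49.9). No neighbours in this order overlapped between the DMSO libraries. In auxin LSR1 and snR19 overlapped, as did snR14 and snR6. Among all 6518 features SCR1 ranked 1, LSR1 4, snR19 5 and RPR1 11 by level per length, while snR14 ranked 2464, snR6 3800 and snR7-L 5295. RPR1 stood 239.7-fold above snR14, the next in order. These are levels in the libraries and need not be levels in the cell. Small nucleolar RNAs under 150 nt also had low levels in DMSO (median 876 per kb, against 76139 for those of 250 nt or more). How far recovery of short RNAs shapes this order was not tested.

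The polymerases were compared first by calls. Of the polymerase II products in the table (4, of which 3 were tested), 1 fell and 0 rose, with a median log2 fold change of -0.22 and a range from -1.41 to -0.08. Of the 3 polymerase III products, 0 fell and 0 rose, with a median of 0.02 and a range from -0.21 to 0.04. The 1 that fell was snR14. The ranges overlapped, and the median of all features was -1.85, with 92.3% called lower and 0.769% higher. With TMM scaling 0 of the 3 tested polymerase II products were lower and 2 higher. Of the 3 polymerase III products 0 were then lower and 3 higher, against 32.3% and 29.6% of all features. With 2 against 2 libraries an exact permutation test cannot go below p = 0.333, so no test of the difference was made. The summed polymerase III products were 1040478 and 1139049 normalized counts in DMSO and 1083180 and 1134209 in auxin. The summed polymerase II products were 649327 and 681377 in DMSO and 575293 and 599929 in auxin. The first sums overlapped between treatments, and the second were lower in both auxin libraries. Together the 7 RNAs made up 10.6% and 10.2% of all counts in DMSO and 16.1% and 14.8% in auxin (the widest Wilson 95% interval, for the first auxin library, ran from 16.0% to 16.1% and covers counting error only).

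**Figure D2:**
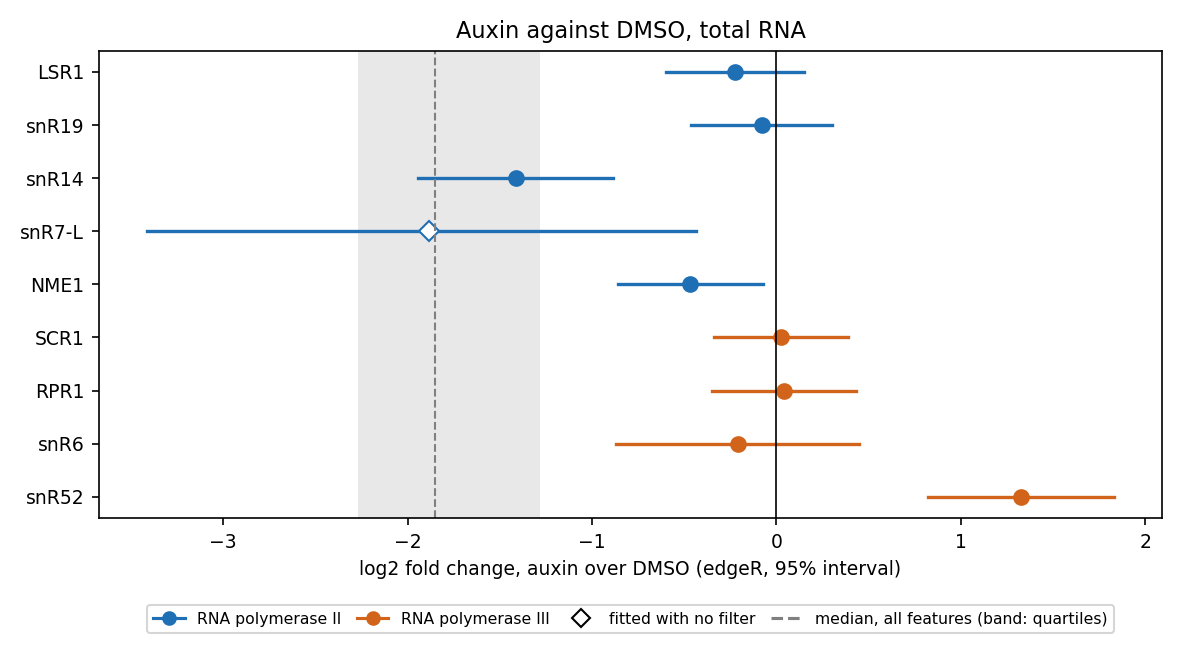
Log2 fold change of auxin over DMSO in total RNA with its 95% interval, authors' size factors, for 4 polymerase II and 3 polymerase III RNAs of the set and for NME1 and snR52. With this scaling the intervals of LSR1, snR19, SCR1, RPR1 and snR6 include 0, the open diamond is snR7-L fitted with no filter, and the dashed line marks the median of all features at -1.85 with its quartiles shaded; TMM scaling shifts every point to the right.

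Ratios of counts within a library do not depend on scaling. The polymerase III products together had 1.602 and 1.672 times the counts of the polymerase II products in DMSO and 1.88 and 1.89 times in auxin. Both auxin libraries were above both DMSO libraries, a rise of 0.21 in the log2 ratio against a pooled SD between replicates of 0.0307. SCR1 and LSR1 supply most of these sums. SCR1 had 2.11 and 2.31 times the counts of LSR1 in DMSO and 2.60 and 2.65 times in auxin. RPR1 had 0.139 and 0.145 times the counts of LSR1 in DMSO and 0.173 and 0.168 times in auxin. The shift was smaller against U1: SCR1 had 5.22 and 4.93 times the counts of snR19 in DMSO and 5.49 and 5.40 times in auxin. The ratio of RPR1 to snR19 overlapped between treatments (0.343 and 0.309 against 0.365 and 0.343).

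Of the pairs made by the same polymerase, SCR1 and RPR1 held their ratio within the replicate spread. SCR1 had 15.2 and 16.0 times the counts of RPR1 in DMSO and 15.04 and 15.8 times in auxin, so the groups overlapped. The polymerase II pair did not overlap: the ratio of U1 to U2 (snR19 over LSR1) was 0.405 and 0.469 in DMSO and 0.474 and 0.490 in auxin, a log2 difference of 0.15 against a pooled SD of 0.108. That difference was larger than those of SCR1 over snR19 (0.10) and RPR1 over snR19 (0.12), which cross the polymerases. For U6 over U4, which also crosses them, the ratio was 0.183 and 0.473 in DMSO and 0.703 and 0.762 in auxin, a log2 difference of 1.31 against a pooled SD of 0.686 that rests on low counts.

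**Figure D3:**
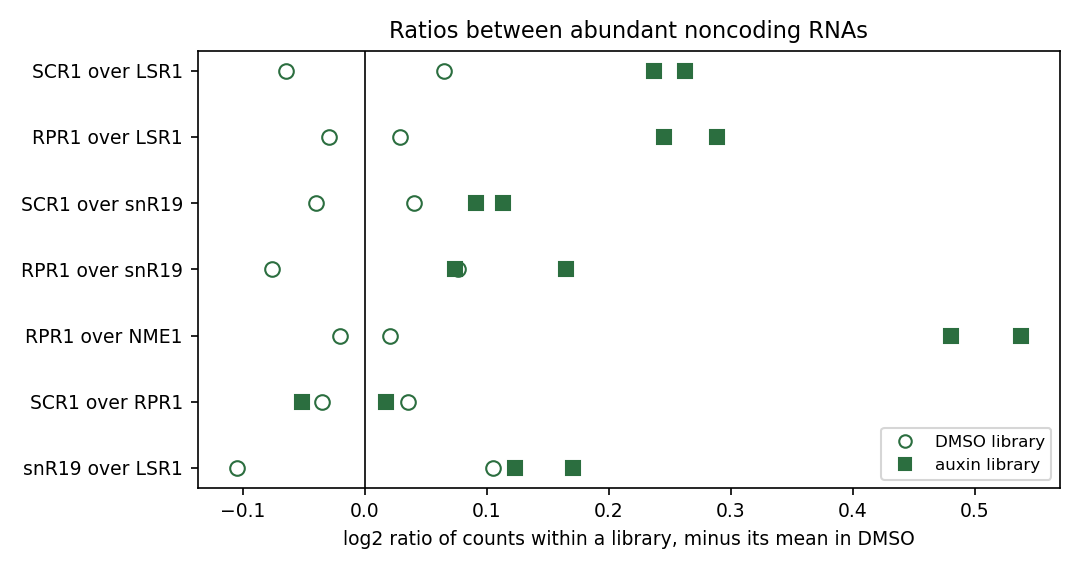
Log2 ratio of raw counts between pairs of abundant noncoding RNAs in each library, minus the mean of the DMSO libraries (open circles, DMSO; filled squares, auxin). The auxin libraries lie to the right of DMSO for SCR1, RPR1 and snR19 over LSR1, for SCR1 over snR19, and most of all for RPR1 over NME1. They overlap with DMSO for SCR1 over RPR1 and RPR1 over snR19. In snR19 over LSR1 both RNAs are polymerase II products.

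NME1 (chromosome XIV 585587 to 585926), the RNA of RNase MRP, was also set beside RPR1. It is related to RPR1, binds many of the same proteins and has a similar length (340 against 369 nt), but is a polymerase II product. It had 10532 and 10701 normalized counts in DMSO and 7529 and 7840 in auxin, with both auxin libraries lower. NME1 fell by 0.47 on the log2 scale (SE 0.2, edgeR adjusted p = 0.0218), whereas it was above 0 with TMM scaling (1.30). The call was lost when any library was left out (-0.50 to -0.44). RPR1 had 6.10 and 6.27 times the counts of NME1 in DMSO and 8.97 and 8.62 times in auxin, a log2 difference of 0.51 against a pooled SD of 0.0351. Some polymerase II snoRNAs nearer to RPR1 in length differed less from it (RPR1 was at 0.04, SE 0.2). Of these, snR42 (351 nt) was at -0.32 and snR37 (386 nt) at -0.14, and neither was called.

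Other polymerase III products were few in these libraries. snR52 (chromosome V 431129 to 431220), a small nucleolar RNA (snoRNA) guide of 92 nt made by polymerase III, had 59.4 and 54.9 normalized counts in DMSO and 124 and 164 in auxin. It rose by 1.32 on the log2 scale, with an SE of 0.257 (adjusted p = 3.35e-07, edgeR), and also rose with TMM scaling (3.07). The 120 nuclear transfer RNA features had only 163 and 93 raw counts in DMSO and 119 and 166 in auxin in all, and 2 were tested, of which tL(UAG)L1 fell (-1.82) and tK(UUU)O was not called (0.45). Their summed normalized counts were 149 and 128 in DMSO and 113 and 139 in auxin, with the groups overlapping. RNA170, a further polymerase III transcript, had 1 to 3 counts per library and was not tested.

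Listed length moved with both level and fold change, so the members were set beside snoRNAs, almost all of them polymerase II products. Over all tested features the median log2 fold change was -1.85, with 92.3% lower and 0.769% higher. The 34 tested snoRNAs under 150 nt (other than snR52) had a median log2 fold change of -1.79, with 31 lower and 0 higher. The median and counts of this class are near those of all features. The 24 snoRNAs from 150 to under 250 nt had a median of -0.67 (21 lower, 0 higher). The 12 of 250 nt or more had a median of -0.46 (7 lower, 0 higher). Of all 70 tested, 59 were lower, and 39 without DMSO replicate 2. With TMM scaling these classes had 7, 1 and 0 lower and 6, 21 and 12 higher, against 32.3% and 29.6% of all features. Their median levels in DMSO were 876, 3299 and 76139 normalized counts per kb. These classes were drawn after the data were seen, and the part that length or recovery plays in any fold change was not tested.

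Against snoRNAs of like length, the polymerase III members stood high, and so did U1 (snR19), a polymerase II product. All 30 tested polymerase II snoRNAs within 25 nt of snR6 (snR52, at 1.32, is left out as a polymerase III product) had a lower log2 fold change than snR6 (median -1.79, highest -0.34). This place rests on 22 to 48 raw counts of snR6 per library, and the highest of the 30 lay within the SE of snR6 (0.335). The value of snR6 was -0.88 without DMSO replicate 1 and 0.70 without DMSO replicate 2. All 5 polymerase II noncoding RNAs within 60 nt of RPR1, NME1 among them, were below RPR1 (median -0.47, highest -0.14). The highest of them lay within the SE of RPR1 (0.2). Among the polymerase II members, U4 lay low: of 9 snoRNAs within 25 nt of snR14 (median -0.69), 1 was lower than snR14. snR7-L, in its unfiltered fit, lay below all 12 snoRNAs within 25 nt of its length (median -0.69, lowest -1.21), and its mean of 7 counts was below the lowest of theirs, 130. U1 lay just above the 2 snoRNAs within 60 nt of it, snR84 (-0.08) and snR30 (-0.14). SCR1 (0.02, SE 0.186) had 1 match within 60 nt, snR84, which lay below it but within that SE. These positions carry no test.

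Ratios within a library gave the same order for short RNAs. They use the same counts as the fold changes, so they are not separate evidence for that order. snR52 had 0.0137 and 0.0117 times the summed counts of the 34 short snoRNAs in DMSO and 0.0947 and 0.102 times in auxin, a 7.75-fold difference. For snR6 the ratio was 0.00463 and 0.0129 in DMSO and 0.0189 and 0.0250 in auxin, a 2.82-fold difference with a pooled SD of 0.764 on the log2 scale. For snR14, a polymerase II product of 160 nt and so longer than that class, it overlapped between treatments (0.0253 and 0.0272 against 0.0269 and 0.0328).

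**Figure D4:**
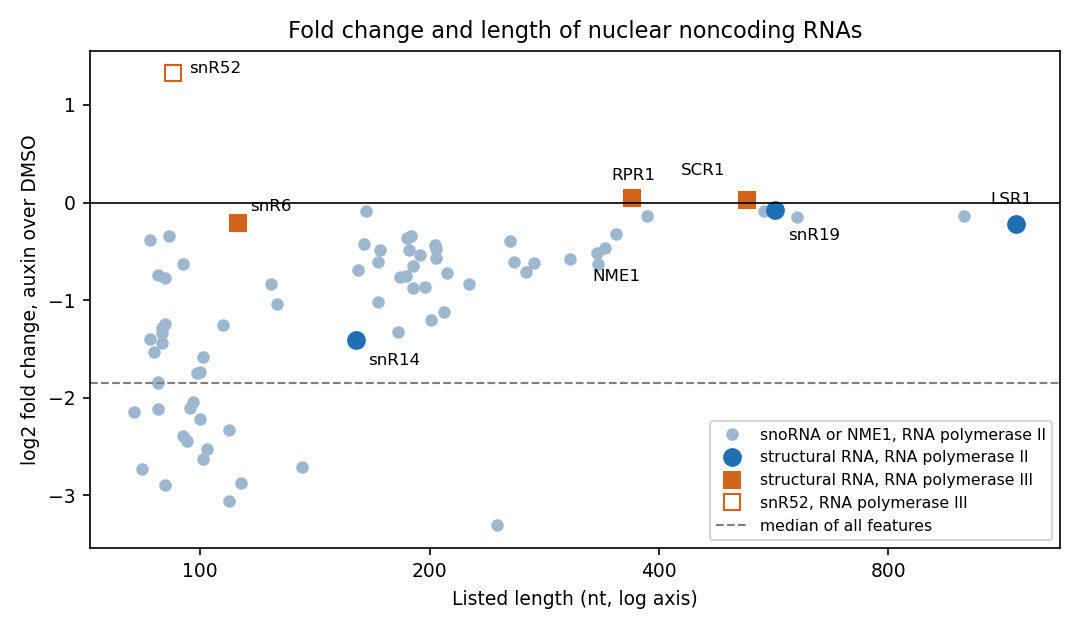
Log2 fold change (auxin over DMSO, authors' size factors) against listed length (log axis) for the tested nuclear snoRNAs, NME1 and the structural RNAs. With this scaling polymerase II RNAs under 150 nt spread down to -3.05, and the lowest point, at -3.31, is a snoRNA of 245 nt. The long RNAs snR84, snR30, snR86, snR19, SCR1 and LSR1 lie between -0.22 and 0.02. The polymerase III RNAs snR6, snR52, RPR1 and SCR1 lie at or above the upper edge of the polymerase II RNAs of like length, where snR19 (polymerase II) also lies.

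The genes next to these loci mostly fell, with values near those of all features. None of the 7 RNAs (0) overlapped another listed feature, and their 14 nearest features lay 106 to 904 bases away. Of these 12 were tested, 11 fell and 0 rose, with a median log2 fold change of -2.12, near that of all features (92.3% lower). The neighbours of SCR1 were not tested, with at most 1.37 normalized counts in any library. The gap between an RNA and a neighbour was widest at snR6 (-0.21), where YLR108C, a gene of unknown function 320 bases away, fell from 5981 and 6351 normalized counts in DMSO to 429 and 441 in auxin (-3.82, SE 0.22, edgeR adjusted p = 1.96e-63). YLR108C was also below 0 with TMM scaling (-2.06). RPR1 stood between YEL020W-A (-2.30) and YEL020C (-2.40), and snR19 between YNL222W (-1.52) and YNL221C (-2.02). YNL221C encodes a protein of the RNase P, RNase MRP and telomerase particles, by the deposited description. At snR14 (-1.41) and snR7-L (-1.88, unfiltered fit) the RNA and its neighbours lay closer: TMA20 (-0.96) and SEC3 (-1.84) flank the first, and YGR221C (-2.43) and YGR222W (-2.21) the second. The neighbour that was not called was YBR230W-A, 125 bases from LSR1 (-0.27, edgeR adjusted p = 0.34).

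Messenger RNAs for the protein partners fell, as did 92.3% of all features (median -1.85), so these counts are near the share over all features. Among the RNAs they bind, snR14 and NME1 were also called lower, and SCR1, RPR1, LSR1, snR19 and snR6 were not called. All 8 features described as signal recognition particle or receptor proteins fell, with a median of -1.80, from YKL154W (the receptor beta subunit, -2.09) to SRP54 (the signal sequence binding subunit, -1.26). SRP54 itself had 4256 and 4938 normalized counts in DMSO and 1744 and 2082 in auxin, with no overlap. All 10 features described as RNase MRP or nuclear RNase P subunits fell (median -2.02), among them POP5 (-1.88), a subunit of both enzymes. Of the 59 tested features described with a spliceosomal particle, 59 fell (median -2.07). These 3 groups were drawn from the deposited descriptions after the data were seen. With TMM scaling they had 2, 5 and 23 lower and 1, 0 and 6 higher, against 32.3% and 29.6% of all features.

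Named lists, matched only to the gene names in the table, are given beside the 92.3% of all features called lower, and their counts are near that share. For the Sm and Lsm proteins that ring the small nuclear RNAs, 10 of 14 were matched and 10 fell (median -1.96), among them SME1 (-2.48) and LSM4 (-1.53). For U1 proteins 7 of 10 were matched and 7 fell (median -2.17), with NAM8, also needed for meiotic splicing, lowest (-3.17) and YHC1, a partner of the 5′ splice site, highest (-1.49). For U2 proteins 4 of 11 were matched and 4 fell (median -2.26), among them PRP21 (-2.54) and PRP11 (-2.19) of the SF3a complex. For U4/U6 and U5 proteins 7 of 16 were matched and 7 fell (median -1.73). PRP8, the scaffold of the catalytic core, fell least (-0.85), DIB1 of the tri-snRNP followed (-0.96), and PRP3 (-2.41) and PRP4 (-2.23) of the U4/U6 particle fell most. For telomerase and telomere end proteins 4 of 8 were matched and 4 fell (median -2.37), among them EST2, the reverse transcriptase (-1.84), YKU70 (-2.68) of the Ku complex and CDC13 (-2.07), which binds telomere ends. SRP54 was the single match of 8 in the signal recognition particle list, and 2 of 11 RNase P and MRP proteins were matched and fell (median -2.37). With TMM scaling 1 match was higher for the signal recognition particle and 3 for U4/U6 and U5 proteins, and 0 to 3 of each list were lower. Over all features that scaling gave 32.3% lower and 29.6% higher.

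Messenger RNAs for the machinery that makes and matures the polymerase III RNAs were called lower at a share near the 92.3% of all features. Of 23 listed genes of RNA polymerase III and its factors 22 were matched and 22 fell, with a median of -1.74 against -1.85 for all features. The large subunits fell least: RET1 from 4652 and 4763 normalized counts in DMSO to 3188 and 3635 in auxin (-0.46, SE 0.196, edgeR adjusted p = 0.0195), and RPO31 by 0.85 on the log2 scale. The TFIIIC subunits TFC1 (-2.64) and TFC6 (-2.64) fell most. Of 17 factors for noncoding RNA ends and maturation 6 were matched and 6 fell (median -0.99), among them SEN1, the helicase of Nrd1 termination (-0.64), LHP1, the La protein that binds U6 and transfer RNA precursors (-0.81), NAB3 (-1.55) of the same termination complex and LRP1 (-1.60), an exosome cofactor. With TMM scaling the polymerase III list had 7 lower and 6 higher, and the maturation list 0 lower and 4 higher. Over all features that scaling gave 32.3% lower and 29.6% higher.

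The features whose 4 libraries ran most like SCR1, by root mean square distance of log2 normalized counts centred on DMSO, were RPA190 (the largest subunit of RNA polymerase I, distance 0.0407), RPL40B (a ubiquitin and ribosomal protein fusion, 0.0448) and YEF3 (translation elongation factor 3, 0.050), among 4381 candidates. Those most like LSR1 were YDR321W (a cytosolic asparaginase, 0.0579), YDL070W (a factor in transcription initiation, 0.0674) and snR86 (a long snoRNA, 0.0687).

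No value in newly synthesized RNA can be given for these RNAs. The partial newly synthesized RNA table lists 2822 features, and 0 of the 7 were among them. Of the 50 most counted features of total RNA 36 were listed there, and of the top 100, 74. In the authors' deposited table the log2 fold changes of the listed features are all at or below -2.20.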

How the data were processed

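Per the labels' protocols, total RNA was extracted from S. cerevisiae mixed with S. pombe and made into stranded, ribosomal RNA-depleted libraries. The submitters' processing notes name the sacCer3 build and bcl2fastq 2.17.1.14; aligner, counter, its use of strand and the source of the size factors are not given in the sources used here. As deposited, raw counts are whole numbers for each feature. Beside them the authors gave a normalized signal, per the file headers, which is the raw count divided by a size factor (1.09 and 0.728 for DMSO, 1.05 and 1.19 for auxin), and the same per kb of listed length. The authors' log2 fold changes and p-values stood beside them; the authors' test is not named in the file headers and their p-values were not used. Genes were named only from the deposited table.

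The 4 total RNA libraries were fitted in R 4.3.3 with edgeR 4.0.16 (quasi-likelihood F test) on treatment alone, with the authors' size factors, for features averaging 10 or more counts. SEs were derived from the F statistic, and the fit was checked on simulated counts. DESeq2 1.42.0, TMM, DESeq2 size factors, total counts, no filter, a replicate term and leaving out each library were alternatives. Ratios used raw counts. The 8 RNAs, the lists and the tests were chosen with earlier results of these data known. Named context genes were the 2 highest and 2 lowest of each list with a mean of at least 10 CPM. The RNAs snR52, NME1, snR30, snR37 and snR42, neighbours and transfer RNAs were named as comparators outside that rule. Similarity used log2 of normalized counts plus 1. No sequence was printed, since none was at hand for this organism.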

Additional observations from a re-analysis of the deposited data

How the results depend on the processing

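Scaling decides most directions. With TMM scaling LSR1 was at 1.54, snR19 at 1.69, snR14 at 0.34, SCR1 at 1.79, RPR1 at 1.81 and snR6 at 1.55 (log2 fold change). With DESeq2 size factors they were at 1.62, 1.76, 0.41, 1.87, 1.89 and 1.62. With total count scaling LSR1 was at 0.39, snR19 at 0.54, SCR1 at 0.65, RPR1 at 0.66 and snR6 at 0.41, and snR14 stayed lower. Calls among the RNAs became 0 lower and 5 higher with TMM or DESeq2 size factors, and 4 higher with total counts. All features gave 1805 lower and 1652 higher with TMM, 1544 and 1811 with DESeq2 size factors, and 379 higher with total counts. For NME1 TMM gave 1.30, DESeq2 size factors 1.37 and total counts 0.15. A change of scaling moves all features by nearly the same amount, so values relative to the median feature could hardly move with it. Under the 7 settings with all libraries these values were 1.58 to 1.64 for LSR1, 1.73 to 1.78 for snR19 and 0.39 to 0.44 for snR14. They were 1.83 to 1.89 for SCR1, 1.85 to 1.91 for RPR1 and 1.57 to 1.65 for snR6. The DESeq2 test with the authors' size factors changed no call among the 6 RNAs. With no filter 2 RNAs were lower (snR7-L was added), and the polymerase III median exceeded the polymerase II median by 0.84, since that RNA then enters the median.

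Leaving out each library in turn gave -0.25 to -0.20 for LSR1, -0.185 to 0.0312 for snR19, -1.74 to -1.16 for snR14, -0.0421 to 0.0927 for SCR1, 0.01 to 0.07 for RPR1 and -0.88 to 0.70 for snR6. Calls lower among the RNAs ranged from 1 to 2, the median difference between polymerases from 0.19 to 0.31, and the log2 ratio of their counts from 0.17 to 0.24. The labels give replicate numbers 1 and 2 in each group without saying that they pair cultures. Replicate differences in DMSO and auxin correlated at -0.12 across features, so the replicate block was not used; with it 5226 features were lower and 51 higher, and LSR1 was at -0.22 (adjusted p = 0.0502), with the calls among the 6 RNAs as before. Depth limits snR6, snR14 and snR7-L.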
